A study of Rattus norvegicus with 6 samples.

Results

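The cluster of miR-132 and miR-212 was examined in rat hypothalamic arcuate nucleus (ARC) tissue as 4 mature miRNAs, rno-miR-132-3p, rno-miR-132-5p, rno-miR-212-3p and rno-miR-212-5p. These were all entries whose hairpin name was miR-132 or miR-212, taken by name and not by any measured value, and they made up 4 of the 562 mature miRNAs listed. Small RNA of the ARC was sequenced in 3 libraries from sham-operated Sprague-Dawley rats and 3 libraries from rats with chronic constriction injury of the infraorbital nerve (CCI-ION), a model of trigeminal neuropathic pain. All were 8 to 10 weeks old at entry and the tissue was taken on Day 14. In CCI-ION rats loose silk ligatures were tied around the left infraorbital nerve, whereas sham rats had the nerve exposed and not tied. The injury is thus a peripheral one on 1 side, and the tissue is bulk ARC with all its cell types. With 6 rats per group given for this experiment and 3 libraries per group, a library may hold more than 1 rat. How rats were assigned to libraries is not given in the sources used here, so n counts libraries and p-values measure the spread between these libraries.

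A miRNA is cut from a hairpin precursor that can yield a mature strand from each side, the 5p and the 3p arm, and the strand loaded into Argonaute pairs with target mRNAs mainly through its seed. miR-132 and miR-212 are processed from a shared primary transcript, which in neurons is transcribed in response to synaptic activity and neurotrophins through the transcription factor CREB. miR-132-3p is known for promoting dendrite growth and synaptic plasticity, and its transcript is induced by light in the suprachiasmatic clock of the hypothalamus. The comparison of CCI-ION with sham rats therefore asks whether the mature products of an activity-driven transcript differed in the ARC 14 days after nerve injury.

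The mature sequences are shown first because the readout of the 4 arms and the overlap between them rest on these sequences. They are written 5′ to 3′ from the RefSeq annotation of assembly GRCr8, where all 4 names matched, with the seed (bases 2 to 8) in capitals.

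miR-132-3p: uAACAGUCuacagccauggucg
miR-212-3p: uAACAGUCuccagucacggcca
miR-132-5p: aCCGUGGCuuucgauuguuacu
miR-212-5p: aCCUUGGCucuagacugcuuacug

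Both 3p arms carried the same seed, and among the mature rat miRNAs of that annotation no other had it. They were identical over the first 9 bases and at 17 of 22 positions in all. Counted from the 5′ end, with miR-132-3p as reference, the differences were A10C, C14U, U17C, U20C and G22A. The 5p arms did not share a seed, since G4U separates miR-132-5p from miR-212-5p within it. Compared position by position from the 5′ end without gaps, they were identical at 14 of 22 positions. An extra base in the longer miR-212-5p shifts its 3′ end in this comparison, so the count understates how alike these arms are. Each seed of a 5p arm was found in no other mature rat miRNA of the annotation. miR-212-5p is 24 nt long and the other arms 22 nt. With 5 or more differences between the most similar arms, a full-length read can be told apart, although how mismatched reads were assigned is not given in the sources used here.

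The hairpin of Mir132 shows how the 2 arms of 1 precursor lie, here with both mature arms in capitals.

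Mir132: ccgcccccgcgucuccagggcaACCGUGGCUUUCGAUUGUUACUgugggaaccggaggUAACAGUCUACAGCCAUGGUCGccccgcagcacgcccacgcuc

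Of its 101 bases, positions 23 to 44 form the 5p arm and positions 59 to 80 the 3p arm, with 14 bases between them. In GRCr8 the genes Mir212 and Mir132 lie next to each other on the plus strand with no gene between them, flanked by the protein-coding gene Hic1 and the lncRNA gene LOC120095261. The submitters' notes name the older build rn6 for these data, so coordinates are not given.

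The deposited values are normalized counts, that is, reads over a factor for library size, and reads were worked out from the whole steps in which the values come. The libraries held 8628309 to 14313839 reads, and CCI-ION replicates 2 and 3 had fewer than any sham library. miR-7a-5p, typical of neuroendocrine hypothalamus, had the highest mean of all miRNAs over the 6 libraries. Within the CCI-ION group the mean of miR-9a-5p was higher (1247800 against 1190340 normalized counts). The share of miR-7a-5p in all reads was 16.8% to 24.4% in sham and 7.90% to 13.5% in CCI-ION libraries. For the 4 arms the depth was ample, as the lowest was 1354 reads, for miR-212-3p in CCI-ION replicate 2. Counting error was at most 2.72% of the value for miR-212-3p and at most 1.15% for the other arms, below the spread between libraries, and it takes reads as independent, which PCR copies are not.

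The cluster was abundantly expressed in the ARC, and its most abundant product was miR-212-5p. With a mean of 19050 normalized counts over the 6 libraries, miR-212-5p ranked 58 among the 562 miRNAs. miR-132-3p followed with 13376 normalized counts (rank 65) and miR-132-5p with 12316 (rank 70). miR-212-3p, which shares its seed with miR-132-3p, had a mean of 1521 normalized counts and ranked 190. The arms are of nearly equal length, so a read stands for a molecule in each, but small RNA ligation differs between sequences and was not measured here. miR-212-5p lay above each of the other arms in all 6 libraries and miR-212-3p lay below them in all 6. miR-132-3p and miR-132-5p were not separated, since miR-132-5p was the higher of the 2 in sham replicates 2 and 3 and the lower in the other 4 libraries.

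The abundant arm with the shared seed, miR-132-3p, did not pass the threshold, and its mean normalized counts in the groups lay within 1 SD of each other. In the order of replicates 1 to 3, used throughout, the sham libraries held 15176, 12984 and 12780 normalized counts and the CCI-ION libraries 13866, 13747 and 11703. The groups overlapped, with the highest and the lowest of the 6 values in sham replicate 1 and CCI-ION replicate 3. The sham mean was 13647 ± 1329 and the CCI-ION mean 13105 ± 1216 (SD, n = 3 each). Fitted with limma on log2(normalized count + 1) across 555 miRNAs (those averaging 1 or more normalized counts), its log2 fold change came to -0.06 with a standard error of 0.13 (Benjamini-Hochberg adjusted p = 0.787). The 95% interval ran from -0.39 to 0.27, which is 0.762 to 1.21 times the sham level. The direction turned with total counts (0.14), with factors from the neuron list (0.52) and without sham replicate 1 or CCI-ION replicate 3 (0.021 each), and upper-quartile factors gave -0.32.

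miR-132-5p, the opposite arm of that hairpin, had fewer normalized counts in every CCI-ION library than in any sham library, although it did not pass the threshold. The sham libraries held 14275, 14110.0 and 13214 normalized counts and the CCI-ION libraries 12596, 9176 and 10523. The sham values lay close together (13866 ± 571, SD, n = 3), whereas the CCI-ION values were spread (10765 ± 1723, SD, n = 3), with replicate 2 the lowest. The CCI-ION mean was 22.4% below the sham mean. By limma this was -0.38 on the log2 scale, with a standard error of 0.15 and a 95% interval of -0.75 to -0.0049 (adjusted p = 0.149, unadjusted p = 0.0479). Groups apart with the lower values in CCI-ION were seen for 21.3% of all miRNAs tested, and an unadjusted p under 0.05 with a lower level for 17.5%, so this arm's pattern was a frequent one in these libraries. The difference was -0.27 on the log2 scale when CCI-ION replicate 2 was left out, -0.17 with total counts and 0.20 with factors from the neuron list described further on. With upper-quartile factors it was larger, at -0.64 (adjusted p = 0.0603 in limma). As shares of reads the groups overlapped, at 0.110% to 0.125% in sham and 0.0873% to 0.120% in CCI-ION libraries.

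miR-212-3p, the rarer arm with the shared seed, held 1607, 1335 and 1333 normalized counts in the sham libraries. The CCI-ION libraries held 1677, 1649 and 1528. Sham replicate 1 lay among the CCI-ION values, and the other sham libraries lay below all of them. The means were 1425 ± 157 and 1618 ± 79.2 (SD, n = 3 each), and limma gave 0.19 on the log2 scale, with a standard error of 0.13 and a 95% interval of -0.13 to 0.50 (adjusted p = 0.331). The direction turned with upper-quartile factors (-0.072). Total counts gave 0.39 and factors from the neuron list 0.76, which passed the threshold (adjusted p = 0.0445 in limma).

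miR-212-5p, the most abundant arm, held 21203, 16841 and 17779 normalized counts in the sham libraries. The CCI-ION libraries held 19249, 21046 and 18180.1. Sham replicate 1 was the highest of all, and the other sham libraries lay below every CCI-ION library. The sham mean was 18608 ± 2296 and the CCI-ION mean 19492 ± 1448 (SD, n = 3 each). By limma the difference was 0.07 on the log2 scale, with a standard error of 0.14 and a 95% interval of -0.27 to 0.41 (adjusted p = 0.736). It was 0.17 without sham replicate 1 and 0.003 without sham replicate 2. Upper-quartile factors turned it to -0.19, whereas total counts gave 0.27 and factors from the neuron list 0.65.

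**Figure D1:**
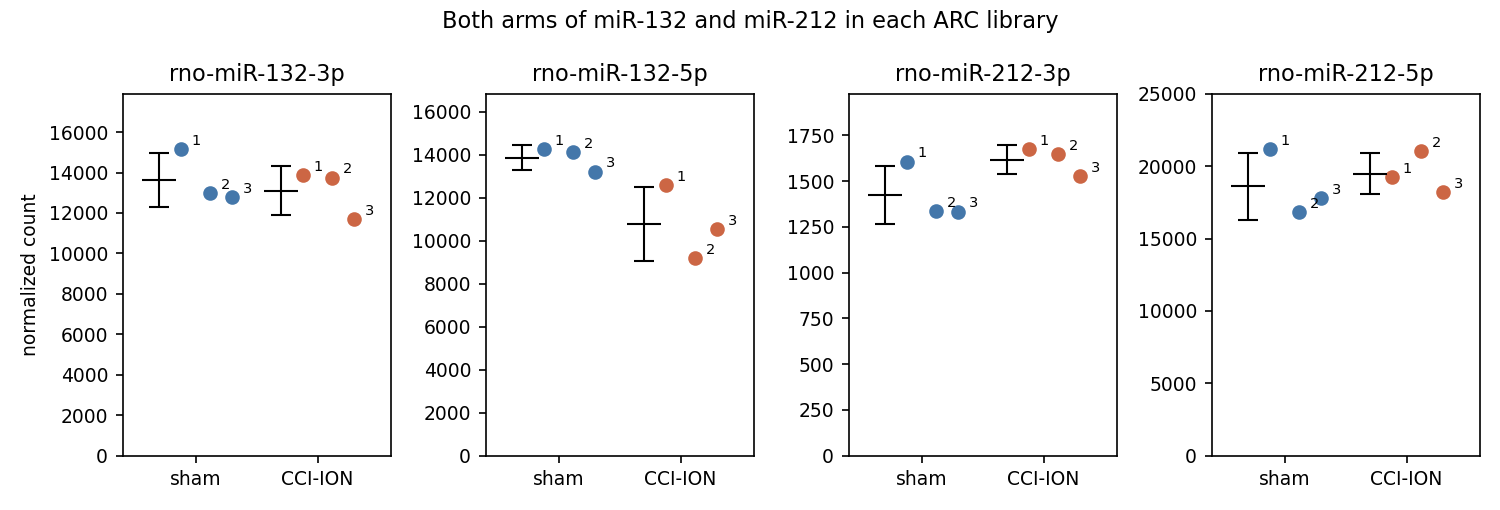
Normalized counts (vertical axes, each from 0) of the 4 arms in sham (blue) and CCI-ION (orange) libraries, where numbers mark the replicates and bars show the mean ± SD (n = 3). On this scale the groups overlap for miR-132-3p, miR-212-3p and miR-212-5p, and for miR-132-5p the CCI-ION libraries (9176 to 12596) sit below the sham libraries (13214 to 14275).

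Of the 4 arms, 0 passed an adjusted p of 0.05 in limma, compared with 6.85% of all miRNAs tested, and 1, miR-132-5p, had an unadjusted p under 0.05, compared with 33.0% of all. That number was 3 with factors from the neuron list, a scale on which 26.3% of all miRNAs tested passed even after adjustment. It was 0 with the replicate block and with library size taken without the most abundant miRNA. It was also 0 in 5 of the 6 fits that left out a library (all but the fit without CCI-ION replicate 1). The 33.0% belongs to the fit reported, and the matching share under these settings was not worked out. With 4 arms a count of 0 past the adjusted threshold is near what 6.85% gives. Exact permutation tests of the single arms gave two-sided p-values of 0.6, 0.1, 0.2 and 0.6 for miR-132-3p, miR-132-5p, miR-212-3p and miR-212-5p, where 0.1 is the smallest that 3 libraries against 3 allow.

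Summed over the hairpins, the miR-132 arms held 25994 to 29451 normalized counts after sham surgery and 22226 to 26462 after CCI-ION (exact permutation test, two-sided p = 0.2). The miR-212 arms held 18176 to 22810 and 19708 to 22695 (exact permutation test, two-sided p = 0.6). The shared seed, miR-132-3p and miR-212-3p together, came to 15072 ± 1486 normalized counts after sham surgery and 14723 ± 1295 after CCI-ION (SD, n = 3 each; exact permutation test, two-sided p = 0.9). On this scale the difference was smaller than the spread between libraries.

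As a share of all reads, which does not use the size factors, the 4 arms made up 0.411%, 0.400% and 0.374% of the sham libraries and 0.451%, 0.434% and 0.406% of the CCI-ION libraries. The difference of the means was 0.0354 percentage points (exact permutation test, two-sided p = 0.2). It was -0.00963 percentage points when reads of miR-7a-5p were left out of the totals. The shared seed took 0.125% ± 0.00766 in sham and 0.141% ± 0.0110 in CCI-ION libraries (SD, n = 3 each; exact permutation test, two-sided p = 0.2), a difference of 0.0157 percentage points that exceeds either SD. The miR-132 hairpin took 0.229% of reads on average in sham and 0.228% in CCI-ION libraries (exact permutation test, two-sided p = 0.9). The miR-212 hairpin took 0.158% to 0.180% in sham and 0.191% to 0.216% in CCI-ION libraries, so that the groups were apart (exact permutation test, two-sided p = 0.1, the smallest possible). Both its arms were apart on this scale, miR-212-3p with 0.0111% to 0.0126% in sham and 0.0148% to 0.0160% in CCI-ION libraries and miR-212-5p with 0.147% to 0.167% and 0.176% to 0.200%, as were 32.3% of all miRNAs tested in that direction. Of the 190 hairpins with both arms tested, 42.6% had shares of reads wholly higher in CCI-ION libraries. Without reads of miR-7a-5p in the totals, a setting chosen after seeing the data, the miR-212 groups overlapped, with 0.193% to 0.238% in sham and 0.221% to 0.235% in CCI-ION libraries.

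Ratios between arms of the same library do not depend on any scaling, and 4 of the 6 pairs of arms had groups that did not overlap. The 5p to 3p ratio of miR-132 was 0.941, 1.09 and 1.03 in the sham libraries and 0.908, 0.667 and 0.899 in the CCI-ION libraries. All CCI-ION libraries lay below all sham libraries, although CCI-ION replicate 1 and sham replicate 1 were close and CCI-ION replicate 2 was far below the rest. miR-132-5p formed 48.5% to 52.1% of the hairpin's counts in sham and 40.0% to 47.6% in CCI-ION libraries. Compared with limma across the 190 hairpins with both arms tested, the log2 ratio differed by -0.32 (standard error 0.17, adjusted p = 0.262). Of these hairpins 10.5% passed the threshold, and in 22.6% the CCI-ION ratios lay wholly below the sham ratios. Without CCI-ION replicate 2 the difference was -0.17.

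The miR-212 hairpin was strongly biased to its 5p arm in both groups. Its 5p to 3p ratio was 13.2, 12.6 and 13.3 in the sham libraries and 11.5, 12.8 and 11.9 in the CCI-ION libraries, so that the groups overlapped. The log2 ratio differed by -0.12 (standard error 0.12, 95% interval -0.41 to 0.18, adjusted p = 0.540 from limma). In sham libraries 75.7% of the other hairpins had a lower 5p to 3p ratio than miR-212 and 49.2% a lower one than miR-132.

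Between the hairpins, the steadiest quantity was the ratio of miR-212-3p to miR-132-3p, the arms with the same seed. It was 0.106, 0.103 and 0.104 in the sham libraries, a coefficient of variation of 1.46%, where the counting error alone of a single library was 2.62% to 2.80%. In the CCI-ION libraries it was 0.121, 0.120 and 0.131, above all sham values and with a coefficient of variation of 4.73%. The difference was 0.25 on the log2 scale (standard error 0.041), and the mean ratio was 18.6% higher. miR-212-3p accordingly formed 9.32% to 9.57% of the shared-seed counts in sham and 10.7% to 11.5% in CCI-ION libraries. Divided by miR-132-3p in the same way, 19.9% of the other miRNAs tested lay wholly higher in CCI-ION libraries, so this order of the groups was not rare.

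The other ratios apart were those with miR-132-5p. The ratio of miR-212-5p to miR-132-5p was 1.19 to 1.49 in sham and 1.53 to 2.29 in CCI-ION libraries, and 37.5% of the other miRNAs, divided by miR-132-5p, lay wholly higher in CCI-ION libraries. The ratio of miR-132-5p to miR-212-3p was 8.88 to 10.6 in sham and 5.57 to 7.51 in CCI-ION libraries, and 29.8% of the other miRNAs, divided by miR-212-3p, lay wholly lower in CCI-ION libraries. The ratio of miR-212-5p to miR-132-3p overlapped, with 1.30 to 1.40 in sham and 1.39 to 1.55 in CCI-ION libraries. Exact permutation tests gave two-sided p-values of 0.1 for the 4 ratios that were apart (0.15 adjusted over the 6), the smallest that this design allows, and of 0.2 and 0.3 for the other 2. The 6 ratios share their 4 arms and are not independent.

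**Figure D2:**
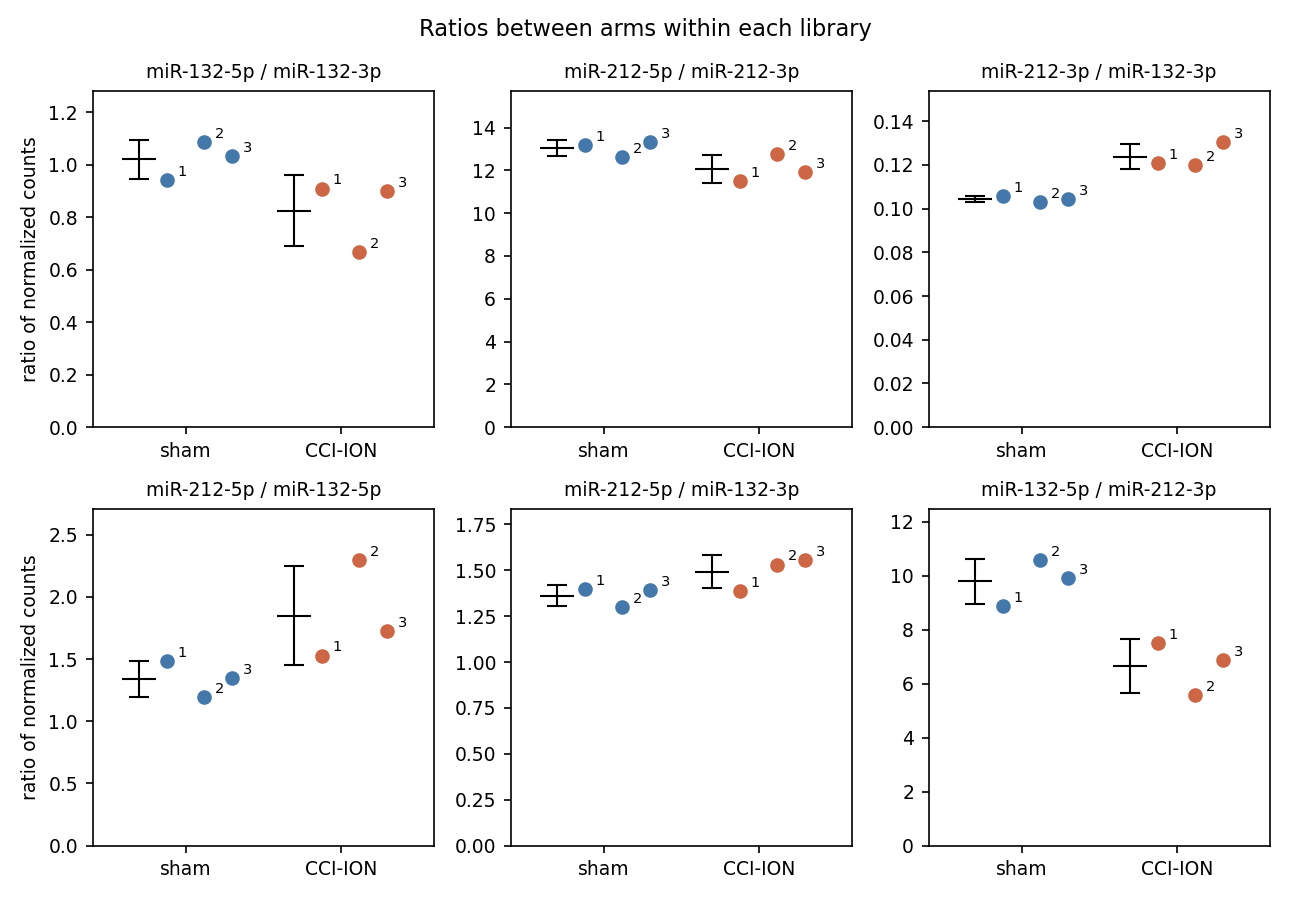
Ratios of normalized counts between arms (vertical axes, each from 0) within each sham (blue) and CCI-ION (orange) library, where numbers mark the replicates and bars show the mean ± SD (n = 3). The sham values of miR-212-3p to miR-132-3p lie within 0.103 to 0.106 and the CCI-ION values within 0.120 to 0.131, whereas miR-212-5p to miR-212-3p and miR-212-5p to miR-132-3p overlap.

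Of the 6 pairs of arms, 4 had a positive and 2 a negative correlation over the libraries. Over the 6 libraries, Pearson's r of the log2 values was 0.83 between miR-212-3p and miR-212-5p, 0.72 between miR-132-3p and miR-212-5p and 0.48 between miR-132-3p and miR-212-3p. miR-132-5p had an r of 0.32 with miR-132-3p and of -0.45 and -0.34 with miR-212-3p and miR-212-5p. These values describe 6 libraries that share their scaling. Among the 363 other miRNAs with a mean of at least 100 normalized counts, miR-212-5p ranked 13 in likeness to miR-132-3p, miR-212-3p ranked 57 and miR-132-5p ranked 101. The 5 most alike were miR-486 (r = 0.94), miR-1839-5p (r = 0.93), miR-28-5p (r = 0.90), miR-3099 (r = 0.86) and miR-361-5p (r = 0.85), with log2 fold changes between -0.19 and -0.08.

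Other miRNAs linked to neuronal activity had log2 fold changes on both sides of 0. In a list of 13 that neurons are known to regulate with, or use in, synaptic plasticity, 5 had a log2 fold change above 0 and 8 below 0. The median was -0.05, beside -0.01 for all 555 miRNAs tested. By limma 0 of the 13 were called at an adjusted p of 0.05, whereas 7 were below 0.05 before adjustment, as were 33.0% of all miRNAs tested. miR-184 stood highest at 0.97 on the log2 scale (limma, adjusted p = 0.0597). miR-134-5p, a dendritic miRNA that limits spine size, had 0.44 (adjusted p = 0.0597), and miR-384-5p, a miRNA of long-term potentiation, had -0.84 (adjusted p = 0.0597). The lowest fitted value belonged to miR-219a-5p, which was listed at 8.00, 0 and 11.8 in the sham libraries and at 0 in all CCI-ION libraries, at the limit of 5 reads below which values were not listed. The median of the other 12 was -0.05.

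Of the cell type markers listed, 5 passed the threshold, and in bulk tissue fewer cells of a type and less RNA per cell cannot be told apart. All 5 calls were lost with the replicate block. For comparison, 6.85% of all miRNAs tested passed an adjusted and 33.0% an unadjusted p of 0.05. Of 7 miRNAs typical of neurons, 2 fell: limma gave -0.78 on the log2 scale for miR-124-3p (adjusted p = 0.0435) and -0.93 for miR-218a-5p (adjusted p = 0.0190). The lowest of the list was miR-137-3p (-1.26, adjusted p = 0.226) and the highest miR-129-5p (0.45, adjusted p = 0.0762), and the median was -0.78. Summed, these 7 held 2160190 to 2352880 normalized counts after sham surgery and 1681430 to 2082880 after CCI-ION. None of the 7 was at 0 in a whole group.

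Of 4 oligodendrocyte miRNAs, 1 fell, miR-338-3p (-1.27 on the log2 scale, adjusted p = 0.0190 from limma), and the summed level was 13685 to 19928 in sham and 10471 to 11304 in CCI-ION libraries. The highest was miR-219a-2-3p at -0.55 (adjusted p = 0.118 from limma), and miR-219a-5p, a defining marker, was again the one listed at 0 in all CCI-ION libraries. Of 4 miRNAs of vessel wall and endothelium, 2 rose, miR-143-3p by 1.11 on the log2 scale (adjusted p = 0.0334 from limma) and miR-145-5p by 0.85 (adjusted p = 0.0450 from limma). Summed over all 4 of the list, the level was 80232 to 105934 in sham and 151501 to 165454 in CCI-ION libraries. The lowest of that list was miR-126a-5p, at -0.91 (adjusted p = 0.205 from limma). The far more abundant arm of its hairpin, miR-126a-3p, was at 0.44 (adjusted p = 0.0877 from limma). The lists for erythrocytes (3 tested), immune cells (5) and pituitary (5) had 0 past the threshold in limma, with 1, 2 and 4 at an unadjusted p under 0.05 and medians of -0.08, 0.06 and 0.57. The summed level of the pituitary list was 2113880 to 3409250 in sham and 946951 to 1556370 in CCI-ION libraries, opposite in direction to its median. Nearly all of that sum was miR-7a-5p (sham mean 2435740 normalized counts), described above as typical of neuroendocrine hypothalamus, and miR-7b (sham mean 244574). Both were lower in CCI-ION libraries, whereas the 3 other members had log2 fold changes above 0. The immune list summed to 2707 to 3404 in sham and 2170 to 2702 in CCI-ION libraries, and the erythrocyte list to 2837 to 3798 and 2898 to 3660. Their log2 fold changes ran from -1.12 (miR-144-5p) to 1.07 (miR-451-5p) for erythrocytes, from -0.84 (miR-142-3p) to 0.95 (miR-223-3p) for immune cells and from -1.04 (miR-7a-5p) to 0.94 (miR-200a-3p) for pituitary. miR-486, the miRNA most alike to miR-132-3p, is also on the erythrocyte list. The folds of these 5 changed little with 1 library left out (miR-124-3p -0.88 to -0.73, miR-218a-5p -0.997 to -0.862, miR-338-3p -1.38 to -1.16, miR-143-3p 0.96 to 1.24 and miR-145-5p 0.73 to 0.99 on the log2 scale). In those fits, miR-338-3p passed in 3 of 6 fits, miR-218a-5p in 2 and miR-124-3p, miR-143-3p and miR-145-5p in 0 (adjusted p up to 0.148 in limma). The part of such marker differences in the values of the miR-132 and miR-212 arms was not tested.

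**Figure D3:**
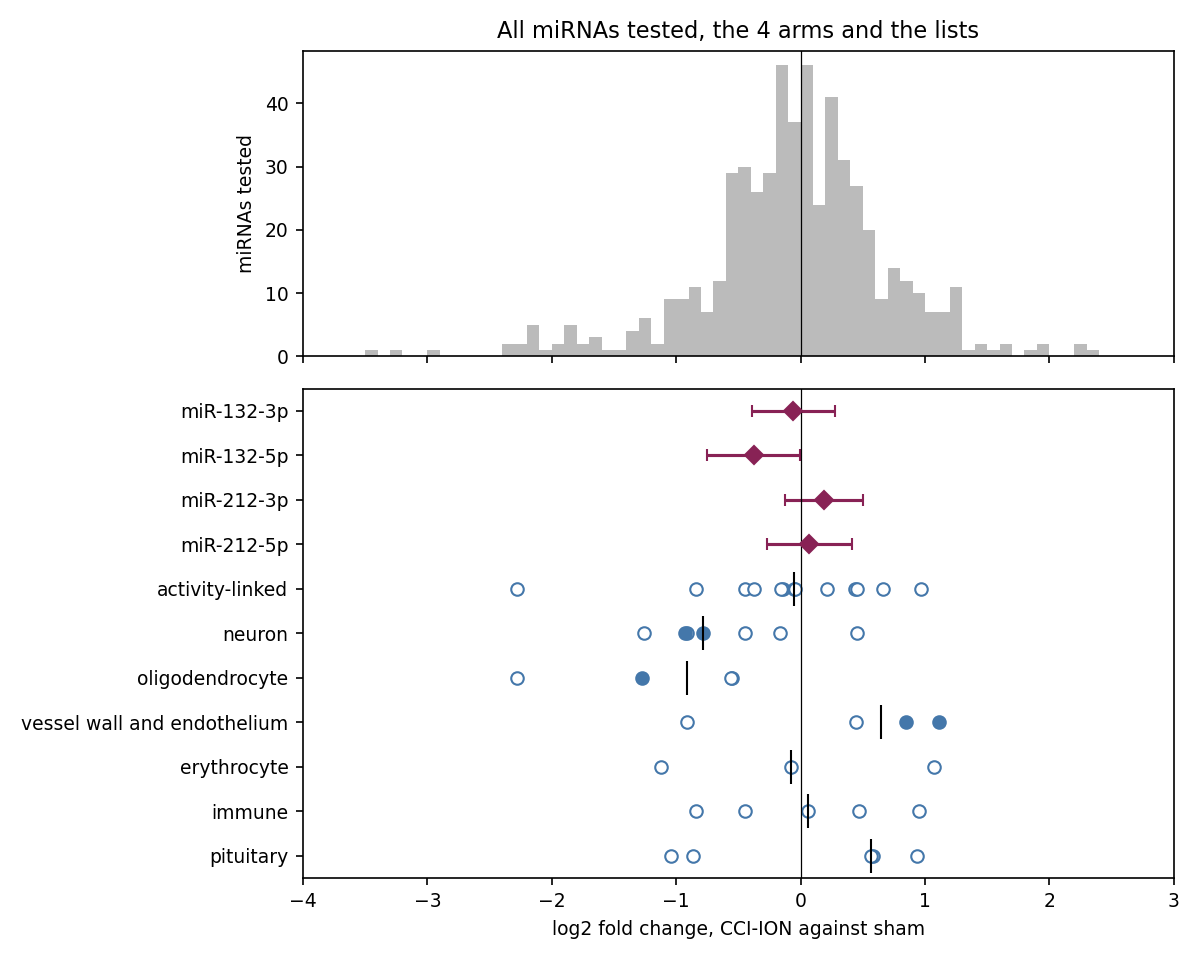
Number of miRNAs tested by log2 fold change, CCI-ION against sham (grey, upper panel), and, on the same axis, the 4 arms with 95% intervals (diamonds) above the members of each list (circles, filled where the adjusted p was under 0.05; vertical ticks are medians). The arms lie between -0.38 and 0.19, near the centre of all miRNAs, while the neuron list has its median at -0.78 and the vessel list at 0.65.

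On the scale of the neuron list, most miRNAs were shifted upwards in CCI-ION libraries, with a median of 0.54 over all tested, and the arms were shifted with them. With each library divided by the geometric mean of the 7 neuronal miRNAs, the log2 fold changes were 0.52 for miR-132-3p, 0.20 for miR-132-5p, 0.76 for miR-212-3p and 0.65 for miR-212-5p, and limma put miR-212-3p past the threshold (adjusted p = 0.0445). On this scale 26.3% of all miRNAs tested passed it, a share near that of 1 in 4 arms.

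Scaling moves all arms alike, whereas leaving out a library could change their order and did not. From miR-132-5p, the lowest log2 fold change, it went through miR-132-3p and miR-212-5p to miR-212-3p, the highest, in the fit reported and in each of the 6 fits that left out a library. These fits share most of their libraries. Between neighbours in this order, the ratios of miR-212-5p to miR-132-3p and to miR-212-3p overlapped between the groups.

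**Figure D4:**
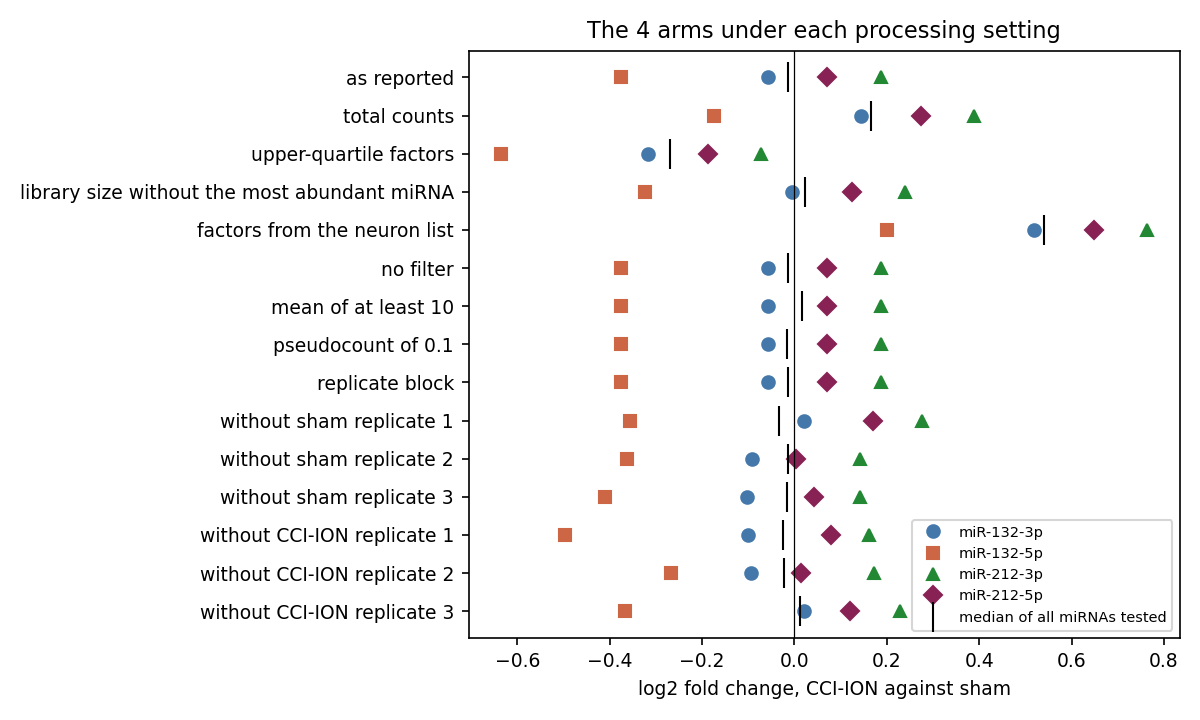
Log2 fold change of each arm (CCI-ION against sham, horizontal axis) as reported and under each of 14 other processing settings (rows), with the median of all miRNAs tested as a black tick. The 4 arms keep their order in the rows that leave out a library (in most other rows it cannot change), and their position relative to 0 shifts with the scaling, up to 0.76 for miR-212-3p with factors from the neuron list.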

How the data were processed

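Small RNA of the rat ARC was sequenced in 3 sham and 3 CCI-ION libraries, grouped by their labels. The authors deposited, per library, a signal value for each of 562 mature miRNAs. Submitters' processing notes name cutadapt 1.14, Bowtie 1.1.1 and build rn6; the counting and the normalization are not given in the sources used here. Within each library 100% of the values were whole multiples of a step (tolerance 0.1 reads), the smallest above 0 being 5 steps, so they were taken as read counts over a size factor (0.821 to 1.20) and called normalized counts.

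For differential expression, limma 3.58.1 in R 4.3.3 was run on log2 values with a pseudocount of 1. Tests were two-sided, p-values were adjusted by Benjamini-Hochberg and 0.05 was the threshold. A minimum mean of 1 normalized count left 555 miRNAs (7 were left out). The same test was run on log2 5p to 3p ratios of 190 hairpins. Single values were compared by exact permutation over libraries. The scripts were tested on simulated data. The 4 arms, the lists of miRNAs and the tests were chosen with earlier results of these data known. Named besides the 4 arms were miRNAs most alike to miR-132-3p, the highest and lowest of each list, list members past the threshold and the most abundant miRNA. miR-134-5p, miR-384-5p, miR-9a-5p, miR-126a-3p, miR-7b and the miRNAs most alike to the other 3 arms were chosen after values were seen. Replicate libraries of a group differed by more than the counting noise of reads and were counted separately. That difference does not show whether they came from different rats.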

Additional observations from a re-analysis of the deposited data

How the results depend on the processing

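Each arm changed the sign of its log2 fold change under at least 1 scaling. With total counts miR-132-3p was at 0.14, miR-132-5p at -0.17, miR-212-3p at 0.39 and miR-212-5p at 0.27. With upper-quartile factors miR-132-3p was at -0.32, miR-132-5p at -0.64, miR-212-3p at -0.072 and miR-212-5p at -0.19. With factors from the neuron list miR-132-3p was at 0.52, miR-132-5p at 0.20 and miR-212-3p at 0.76, and the number of arms past the threshold went from 0 to 1. Total counts put the median of all miRNAs tested at 0.17, upper-quartile factors at -0.27 and the neuron list at 0.54, beside -0.01 as reported, with 51, 88 and 146 miRNAs past the threshold in place of 38 (82.4%, 10.2% and 96.6% of them higher, beside 50.0%). The share of reads in the 4 arms differed by -0.00963 percentage points without the most abundant miRNA. Across fits that each left out a library, miR-132-3p ranged from -0.10 to 0.021, above 0 only without sham replicate 1 or CCI-ION replicate 3. miR-132-5p ranged from -0.50 to -0.27 and its 5p to 3p ratio from -0.39 to -0.17, smallest without CCI-ION replicate 2. miR-212-5p ranged from 0.003 to 0.17 and miR-212-3p from 0.14 to 0.28. The log2 ratio of miR-212-3p to miR-132-3p stayed between 0.21 and 0.27. Filters and a pseudocount of 0.1 moved no arm across the threshold. With the replicate block, which cannot change the fold, miR-132-5p had an adjusted p of 0.209 in limma and its unadjusted p was no longer under 0.05. Deviations of same-numbered libraries from their group means correlated at -0.031, 0.19 and -0.012. With 3 libraries per group this cannot show whether same-numbered libraries were handled as pairs. The sources used here do not say. The cause of these changes was not tested. Leaving out a library gave 7 to 42 miRNAs and 3 to 23 of the 190 hairpins past the threshold, beside 38 and 20, a minimum mean of 10 gave 63 and 30, and the replicate block 3 and 0. miR-338-3p, miR-218a-5p, miR-124-3p, miR-143-3p and miR-145-5p kept their direction under all 14 alternatives, but 0 of the 5 passed with the block. With total counts miR-124-3p did not pass (adjusted p = 0.0788 from limma), nor did miR-145-5p with upper-quartile factors (adjusted p = 0.0603). With factors from the neuron list, which holds 2 of them, miR-338-3p (-0.70, adjusted p = 0.0775), miR-218a-5p (-0.35, adjusted p = 0.130) and miR-124-3p (-0.20, adjusted p = 0.385) did not pass. Tests of counts by edgeR and DESeq2 were planned and not run, since the lowest value is worth 5 steps and not 1, which leaves the reads worked out here without a check at the lowest counts. Counting error was below the spread between libraries for the 4 arms.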

Other observations

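The miRNAs whose pattern over the 6 libraries was most like that of miR-132-5p were looked up after its values had been seen. Among 363 miRNAs with a mean of at least 100 normalized counts these were miR-376b-5p, miR-9a-3p, miR-384-5p, miR-421-3p and miR-3068-3p, with Pearson's r from 0.99 down to 0.95. miR-9a-3p, like miR-132-5p an arm of a brain hairpin, had means of 32780 and 16478 normalized counts, and miR-384-5p had means of 3095 and 1763. miR-132-3p, the partner arm, ranked 139 in likeness to miR-132-5p. For miR-212-3p the most alike was miR-320-3p (r = 0.90), and for miR-212-5p it was miR-93-5p (r = 0.95).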
